A study of Mus with 12 samples.

Results

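The genes described here are the chromatin modifying enzymes and bromodomain proteins whose symbols begin with Kdm, Kmt, Hdac, Sirt, Ezh, Setd, Kat, Tet, Dnmt, Prmt or Brd followed by a digit. The rule matched 91 of the 27294 genes in the deposited table, and 88 of them had enough counts to be tested. Of the 91 rows, 38 are writers, which add marks to histones or DNA, 39 are erasers, which remove them, and 7 are bromodomain readers. The last 7 rows match by name alone: antisense transcripts, pseudogenes and Brd8dc. The 3 rows left untested were Kdm4d, Dnmt3l-ps1 and Kat2b-ps.

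RNA was sequenced from mouse primary peritoneal macrophages, the resident phagocytes of the abdominal cavity. The 4 groups were wild type (WT) without treatment, WT with the treatment label oxLDL (oxidised low-density lipoprotein, a modified cholesterol carrier), KO without treatment and KO with oxLDL, with n = 3 libraries each. The labels name no gene for the KO genotype, no strain, age, dose or time, and WEE1, which stands in the title of the series, is a kinase that holds back mitosis. The sample titles say LDL where the treatment label says oxLDL. No label says that the libraries of a group came from separate animals, so p-values measure the spread between these libraries, which may be technical.

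Lysine acetyltransferases and deacetylases set histone acetylation, which bromodomain proteins read. Methyltransferases and demethylases of lysine and arginine residues write and remove marks such as H3K4 and H3K27 methylation. DNA methyltransferases methylate cytosine, and TET dioxygenases oxidise methylated cytosine as the start of its removal. In macrophages several of these enzymes are known as regulators of inflammatory genes, among them the H3K27 demethylase Kdm6b, Tet2, Hdac3 and Sirt1.

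Library totals ran from 53588814 to 76809931 counts, and WT replicate 2 was the shallowest library of both WT groups. Wee1 had 2.80 to 3.25 FPKM (fragment counts normalised to gene length and library size) in untreated WT, 1.44 to 1.78 in WT with oxLDL, 1.22 to 1.63 in untreated KO and 1.25 to 1.60 in KO with oxLDL. All 9 genes of a macrophage list were above 1 FPKM in every group, but their levels differed. In untreated KO the means of Adgre1 (158 against 545 FPKM in untreated WT), C1qa (31.6 against 156) and Fcgr1 (9.32 against 40.9) were lower. Those of the other list genes were lower too, except Cd68 (2001 against 1629). After oxLDL in WT the means of Cd14 (337 against 82.7 untreated), Fcgr1 (131), Adgre1 (762) and, slightly, Mertk (58.7 against 57.0) were higher. Those of Csf1r (137 against 273), C1qa (90.1), Lyz2 (12450 against 18498), Cd68 (1376) and Itgam (172 against 202) were lower. The extraction text speaks of adipose material: of the 3 adipocyte genes in the table Adipoq was at 0 to 0.101 FPKM and Plin1 at 0 to 0.0216, while Fabp4, which macrophages also express, had mean values of 62.9 FPKM in untreated WT, 11.3 after oxLDL in WT, and 123 and 120.1 in the KO groups. Marker sums of other cell types moved with genotype: the 6 B cell genes summed to 20.2 to 26.7 FPKM in the WT groups and 6.98 to 9.38 in the KO groups, carried mostly by Ighm. The 6 neutrophil genes summed to 16.3 to 24.6 FPKM in the WT groups, carried mostly by Mmp9, and 1.76 to 2.12 in the KO groups, carried mostly by S100a8. The mean of S100a8 was 3.17 FPKM in untreated WT, 3.60 after oxLDL in WT and 1.47 in both KO groups. S100a9, Retnlg and Ly6g were at 0 in every KO library and at most 0.168 FPKM in a WT library. The 6 mast cell genes summed to 5.17 to 6.10 FPKM in untreated WT, 3.12 to 3.77 after oxLDL in WT and 1.09 to 1.64 over the KO libraries. The 7 T and NK cell genes summed to 1.09 to 1.59 FPKM in the WT groups and 0.260 to 0.525 in the KO groups. For the 7 fibroblast and mesothelial cell genes these sums were 10.4 to 11.9 and 7.63 to 9.12. The 5 dendritic cell genes went the other way, at 0.319 to 0.421 FPKM in untreated WT and 0.774 to 0.821 in untreated KO. With oxLDL they summed to 0.128 to 0.229 FPKM in WT and 0.492 to 0.810 in KO. The 7 genes of large peritoneal macrophages summed to 114 to 122 FPKM in untreated WT and 62.3 to 67.2 over both KO groups, and to between 279 and 287 after oxLDL in WT. That last sum was carried by F10, whose mean was 87.4 FPKM in untreated WT and 261 after oxLDL. The means of Cxcl13 (26.8 and 18.4), Icam2 (2.15 and 0.891), Gata6 (0.249 and 0.0991) and F5 (0.347 and 0.151) were lower after oxLDL. Those of Timd4 (1.47 and 1.75) and Selp (0.103 and 0.192) were higher. In untreated KO the means of F5 (0.882) and Selp (0.205) lay above untreated WT, and those of the other list genes below. In bulk RNA, fewer cells of a type and less RNA per cell cannot be told apart, and the part of these shifts in the results below was not tested.

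Changes are log2 differences from edgeR's quasi-likelihood test on the counts with TMM scaling, given with their standard error (SE), and calls required an adjusted p (Benjamini-Hochberg, over all 17291 tested genes) under 0.05. The scaling bears on direction here. With library totals alone the median of all genes lay at -0.46 for oxLDL in WT, -0.12 for KO against WT untreated, 0.36 for KO against WT with oxLDL and 0.49 for the interaction (how far the oxLDL response of KO exceeded that of WT), against -0.06, -0.01, 0.05 and 0.08 on the TMM scale. A gene is said to have risen or fallen below only where it was called in the same direction under all 5 settings: TMM, library totals, DESeq2 size factors in edgeR, DESeq2 itself, and limma on log2(FPKM + 1). Other calls are given as calls on the TMM scale. Shares over all genes were counted on the TMM scale only. Whether member counts under library totals or all 5 settings lean further than those of all genes was therefore not tested.

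In WT macrophages oxLDL was followed by changes in both directions among these genes. Kdm6b, Tet2, Kat2b and Kdm4a rose, while Hdac5, Kat6b, Kmt5c, Setd7 and Dnmt1 fell. On the TMM scale 35 of the 88 tested members were called higher and 27 lower, with 18 changed at least 2-fold. Among all genes tested, 23.9% were called higher, 27.2% lower and 20.3% at least 2-fold. The median absolute log2 change was 0.46 for the members and 0.54 for all genes. With TMM, 56.5% of the called members were higher, and with library totals 21.2% were, as 14 higher and 52 lower. Under all 5 settings 12 members rose and 26 fell, while the median of all genes lay at -0.46 with library totals. The 12 were Brd2, Brd7, Hdac1, Hdac9, Kat2b, Kdm4a, Kdm6b, Kdm7a, Kmt5a, Setd5, Tet1 and Tet2.

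In KO macrophages no member was called with oxLDL in edgeR's quasi-likelihood test, as 0 of 88 higher and 0 lower, against 0.0116% of all genes called higher and 0% called lower. At an unadjusted p under 0.05 there were 5 members (Hdac5, Sirt4, Kdm6bos, Dnmt3l and Dnmt3c) and 1211 of all genes. DESeq2 called 1 member, Dnmt3l, lower; it had 22 counts over the untreated KO libraries, of which 1 library had 0, and 0 counts with oxLDL, which is at least 7.44-fold lower when a group total of 3 counts is taken as the floor. The median absolute log2 change in KO was 0.07 for the members and 0.11 for all genes.

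Between genotypes without treatment, 15 members were called higher in KO and 15 lower, with 4 at least 2-fold. Dnmt3a and Sirt1 were higher in KO, and Hdac7, Sirt6 and Kat2b were lower. Over all genes 14.8% were called higher, 16.2% lower and 10.1% at least 2-fold, so the members' shares of 17.0% in each direction lay near those of all genes. With TMM 50% of the called members were higher in KO, and with library totals 19.4% were, as 6 higher and 25 lower. Without WT replicate 1 the count of higher members was 9, and without WT replicate 2 it was 7. Under all 5 settings 6 members were higher in KO (Dnmt3a, Dnmt3aos, Hdac9, Kmt2a, Sirt1 and Sirt2) and 14 lower.

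With oxLDL the genotypes lay further apart, with 29 members called higher in KO than in WT, 39 lower and 27 at least 2-fold. The shares over all genes were 30.6% higher, 27.4% lower and 28.5% at least 2-fold. With TMM 42.6% of the called members were higher in KO, and with library totals 64.7% were. Under all 5 settings 28 were higher and 22 lower. The interaction was called positive for 21 members and negative for 30, with 21 at least 2-fold, and over all genes for 22.1%, 19.6% and 18.4%. The positive share of called members was 41.2% with TMM and 77.4% with library totals, and 19 positive and 13 negative calls held under all 5 settings. The comparisons share libraries, since each WT group and each KO group enters more than 1 of them, so their values are set side by side and not counted against each other.

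**Figure D1:**
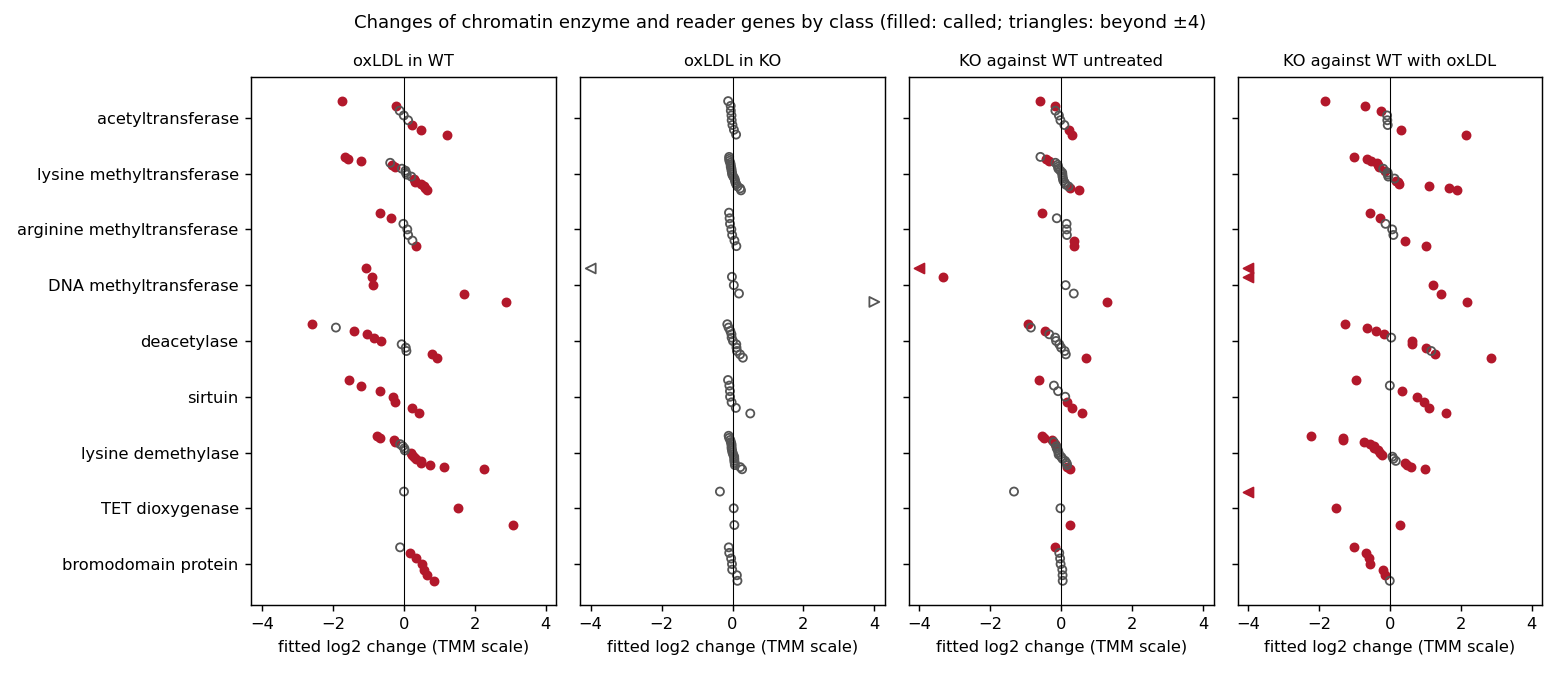
Fitted log2 changes (TMM scale, x axis) of the tested enzymes and readers, by class (y axis), for oxLDL in WT, oxLDL in KO, KO against WT untreated and KO against WT with oxLDL. Each point is a gene, filled where called at an adjusted p under 0.05 in edgeR's test, with triangles for values beyond 4 in either direction. Filled points lie on both sides in every panel except oxLDL in KO, which has 0.

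For the class counts below, the shares over all genes with oxLDL in WT were 23.9% called higher and 27.2% lower with TMM. Among the writers, the 8 acetyltransferases moved in both directions. With oxLDL in WT, 3 were called higher and 2 lower with TMM (1 and 6 with library totals). Kat2b, which encodes the acetyltransferase PCAF (chromosome 17, 53566861 to 53672720, plus strand, on GRCm38), had 11.3, 11.9 and 11.7 FPKM in untreated WT and 19.5, 20.8 and 21.4 with oxLDL. KO macrophages had 7.33, 6.85 and 7.22 FPKM untreated and 7.21, 7.11 and 7.06 with oxLDL. All KO libraries lay below all untreated WT libraries, and those below all WT libraries with oxLDL. Kat2b rose by 1.23 ± 0.05 log2 (SE) with oxLDL in WT (adjusted p = 3.53e-11, edgeR's quasi-likelihood test). In KO the oxLDL difference was 0.00 ± 0.05, and the genotype difference was -0.60 ± 0.05 untreated and -1.83 ± 0.05 with oxLDL.

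Kat6b, the MORF acetyltransferase of the MYST family (chromosome 14, 21481434 to 21672478, plus strand), went the other way. It had 0.952, 0.941 and 1.14 FPKM in untreated WT and 0.228, 0.231 and 0.227 with oxLDL. In the KO libraries it had 1.14, 1.10 and 1.25 FPKM untreated and 1.09, 1.34 and 1.33 with oxLDL. The WT libraries with oxLDL stood alone below the other 9. Kat6b fell by 1.73 log2 with oxLDL in WT (SE 0.10, adjusted p = 3.21e-09 in edgeR's test), and its interaction was 1.83 ± 0.14. Its paralog Kat6a was called 0.50 ± 0.06 higher on the TMM scale, a call that library totals did not keep.

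Kat2a, which encodes GCN5, the close relative of PCAF, fell slightly with oxLDL in WT, from 9.17 to 9.99 FPKM down to 5.87 to 6.55. Its fitted change was -0.22 ± 0.07 (adjusted p = 0.015 in edgeR's test), and it was not called without WT replicate 1 (adjusted p = 0.0755), WT oxLDL replicate 2 (0.0541) or WT oxLDL replicate 3 (0.0562). In the untreated comparison of genotypes Kat2b and Kat6a were lower in KO; Kat6a was at -0.18 ± 0.06 and was not called without WT replicate 1, WT replicate 3, KO replicate 1 or KO replicate 2, at adjusted p from 0.0538 to 0.139 in the same test. The remaining acetyltransferases, Kat5 (TIP60), Kat7 (HBO1), Kat8 (MOF) and Kat14, had group means from 2.70 to 11.8 FPKM.

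The 18 lysine methyltransferases include Kmt5a, the member with the highest mean FPKM in both WT groups; in the KO groups Dnmt3a lay above it. With oxLDL in WT 7 were called higher and 5 lower with TMM (2 and 10 with library totals). Under all 5 settings Kmt5a and Setd5 rose, and Kmt5c, Setd4, Setd7, Ezh1 and Ezh2 fell. Kmt5a, the H4K20 monomethyltransferase (chromosome 5, 124439930 to 124462308, plus strand), had 59.4, 53.5 and 57.5 FPKM in untreated WT and 66.1, 70.6 and 66.4 with oxLDL. Its KO values were 43.6, 40.2 and 40.6 FPKM untreated and 41.7, 39.8 and 41.5 with oxLDL. The 3 levels did not overlap. It rose by 0.66 ± 0.05 log2 with oxLDL in WT and was lower in KO by a log2 difference of -0.35 ± 0.05 untreated and -1.03 ± 0.05 with oxLDL (adjusted p = 6.25e-08, 0.000101 and 2.80e-10 in edgeR's test).

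Kmt5c, which adds further methyl groups at the same H4K20 residue (chromosome 7, 4740115 to 4747514, plus strand), had 5.98, 6.30 and 6.72 FPKM in untreated WT and 1.85, 1.20 and 1.45 with oxLDL. The values in KO were 6.56, 5.87 and 5.54 FPKM untreated and 5.77, 6.84 and 8.27 with oxLDL. It fell by 1.65 log2 in WT (SE 0.15, adjusted p = 2.65e-07 in edgeR's test) and had an interaction of 1.87 ± 0.20. The WT libraries with oxLDL lay below the other 9. Its paralog Kmt5b was called in none of the comparisons on the TMM scale.

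Setd7, a monomethyltransferase of H3K4 and of non-histone proteins (chromosome 3, 51515319 to 51560879, minus strand), had 7.11, 7.37 and 7.79 FPKM in untreated WT. With oxLDL it had 2.45, 2.39 and 2.40 FPKM. The KO libraries had 6.48, 6.17 and 6.75 FPKM untreated and 6.44, 6.21 and 6.64 with oxLDL. WT with oxLDL stood alone again. Setd7 fell by 1.21 log2 (SE 0.05, adjusted p = 7.53e-11 in edgeR's test), and the interaction was 1.20 ± 0.07. Setd6, which methylates the NF-κB subunit RelA, had 2.57, 2.32 and 2.43 FPKM in untreated WT, 1.12, 1.78 and 1.32 after oxLDL, 1.47, 1.49 and 1.58 in untreated KO and 2.36, 1.33 and 1.28 in KO with oxLDL. KO replicate 1 with oxLDL stood apart from the other 2, and Setd6 was called in none of the comparisons (adjusted p from 0.0732 to 0.997, same test).

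The H3K27 methyltransferases Ezh1 and Ezh2, the alternative catalytic subunits of Polycomb repressive complex 2, were both lower with oxLDL in WT. Ezh2 had 1.69, 1.72 and 1.63 FPKM in untreated WT, 1.04, 1.01 and 0.951 with oxLDL, 1.09, 1.09 and 1.28 in untreated KO and 1.06, 1.11 and 1.08 in KO with oxLDL. All 3 other groups lay below untreated WT. The oxLDL change in WT was -0.33 ± 0.10 and the untreated genotype difference -0.44 ± 0.10 (adjusted p = 0.00946 and 0.00255 in edgeR's test); the first was not called without replicate 2 of both WT groups (adjusted p = 0.0527). Ezh1 fell by 0.24 log2 in WT (SE 0.05) and its untreated genotype difference was 0.03 ± 0.05. Ezh2 is known to be higher in dividing cells. Of 25 S phase and mitosis genes 22 were called lower in untreated KO and 1 higher, with 14 lower and 3 higher for oxLDL in WT. Over all genes 16.2% were called lower and 14.8% higher in untreated KO, and 27.2% and 23.9% for oxLDL in WT. The part of proliferation in the Ezh2 values was not tested.

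For the H3K4 methyltransferases of the MLL and SET1 families no call for oxLDL in WT held under all 5 settings. The direction of the change turned with the scaling for some of them. Kmt2a (MLL1) had 13.4, 13.6 and 13.5 FPKM in untreated WT, 13.1, 12.3 and 12.02 after oxLDL, 18.03, 16.5 and 18.5 in untreated KO and 16.05, 16.6 and 19.5 in KO with oxLDL. In FPKM, which are scaled by library totals, the KO libraries all lay above the WT libraries. The genotype difference with oxLDL was not called under all 5 settings. Kmt2a was 0.50 ± 0.07 log2 higher in untreated KO (adjusted p = 3.14e-05, edgeR's test). For oxLDL in WT it was called at 0.30 ± 0.07 with TMM, but lay at -0.11 with library totals and -0.10 with limma. Kmt2b, Kmt2d and Setd1b were likewise called higher with oxLDL in WT on the TMM scale and not under all 5 settings. The same held for Setd3, which belongs to neither family. With library totals Kmt2b (-0.09) and Setd3 (-0.10) turned sign, while Kmt2d (0.09) and Setd1b (0.20) did not. Kmt2c, Kmt2e, Setd1a and the H3K36 methyltransferase Setd2 were not called for oxLDL in WT with TMM.

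Of the 7 arginine methyltransferases, with oxLDL in WT 1 was called higher and 2 lower with TMM (0 and 5 with library totals). Prmt7 had 2.61, 2.30 and 2.51 FPKM in untreated WT, 1.20, 1.32 and 0.983 with oxLDL, 3.03, 2.92 and 2.91 in untreated KO and 3.18, 2.76 and 2.72 in KO with oxLDL. It fell in WT by 0.68 log2 (SE 0.11, adjusted p = 0.000119, edgeR's test) and its interaction was 0.64 ± 0.15. Prmt1, the main asymmetric arginine methyltransferase, had 7.92, 8.22 and 8.52 FPKM in untreated WT and 6.48, 6.85 and 6.90 with oxLDL. The KO libraries had 4.96, 5.95 and 4.87 FPKM untreated and 6.12, 5.83 and 5.07 with oxLDL, all below the WT libraries. Its genotype difference was -0.54 ± 0.09 untreated (adjusted p = 0.000316, same test) and -0.55 ± 0.09 with oxLDL. Prmt2 was called 0.34 ± 0.06 higher with oxLDL in WT on the TMM scale, but lay at -0.07 with library totals and -0.06 with limma. Prmt5, the symmetric arginine methyltransferase, was called in none of the comparisons on that scale.

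The 5 DNA methyltransferase genes were all called with oxLDL in WT, 2 higher and 3 lower with TMM (1 and 3 with library totals). Dnmt1, the maintenance enzyme that copies methylation after replication (chromosome 9, 20907209 to 20952979, minus strand), had 31.3, 30.9 and 33.3 FPKM in untreated WT and 11.8, 11.3 and 11.3 with oxLDL. In KO it had 33.1, 31.2 and 32.3 FPKM untreated and 32.2, 31.9 and 34.9 with oxLDL. WT with oxLDL lay far below the other 9 libraries. Dnmt1 fell by 1.06 log2 in WT (SE 0.05, adjusted p = 1.09e-10, edgeR's test), its untreated genotype difference of 0.12 ± 0.05 was not called, and its interaction was 1.10 ± 0.07.

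Dnmt3a, which sets methylation de novo (chromosome 12, 3806007 to 3914443, plus strand), differed between genotypes before any treatment. It had 24.5, 24.2 and 24.7 FPKM in untreated WT and 10.4, 10.02 and 9.70 with oxLDL. In the KO libraries it had 57.6, 55.6 and 55.0 FPKM untreated and 56.1, 56.9 and 53.1 with oxLDL. The KO libraries lay above both WT groups. Dnmt3a was 1.30 ± 0.04 log2 higher in untreated KO and 2.16 ± 0.04 higher with oxLDL (adjusted p = 3.04e-12 and 3.12e-15, edgeR's test), and fell by 0.88 log2 with oxLDL in WT (SE 0.04). Its interaction was 0.86 ± 0.05. The row Dnmt3aos lies inside Dnmt3a on the opposite strand (chromosome 12, 3859293 to 3862244), with 4.995 to 6.09 FPKM in untreated WT, 0.801 to 0.901 with oxLDL and 15.1 to 16.5 in the KO groups. Since the sources used here do not say whether counting used strand, its reads and those of Dnmt3a cannot be told apart.

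Dnmt3b fell with oxLDL in WT as well, from 0.472 to 0.553 FPKM down to 0.170 to 0.259, a log2 change of -0.89 ± 0.19 (adjusted p = 0.00126, edgeR's test). Dnmt3l, the catalytically inactive partner of the de novo enzymes (chromosome 10, 78041947 to 78063622, plus strand), had 92, 51 and 83 counts in untreated WT and 222, 108 and 216 with oxLDL. In untreated KO it had 0, 9 and 13 counts and with oxLDL 0 in all 3 libraries. With oxLDL it was therefore at least 253-fold lower in KO than in WT, with the same floor. Its untreated genotype difference was -3.34 ± 0.63 (adjusted p = 0.00121, edgeR's test). Dnmt3c, a rodent copy of Dnmt3b whose reads may be shared with it, had 69 counts over untreated WT and 0 over untreated KO, at least 23.4-fold lower.

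**Figure D2:**
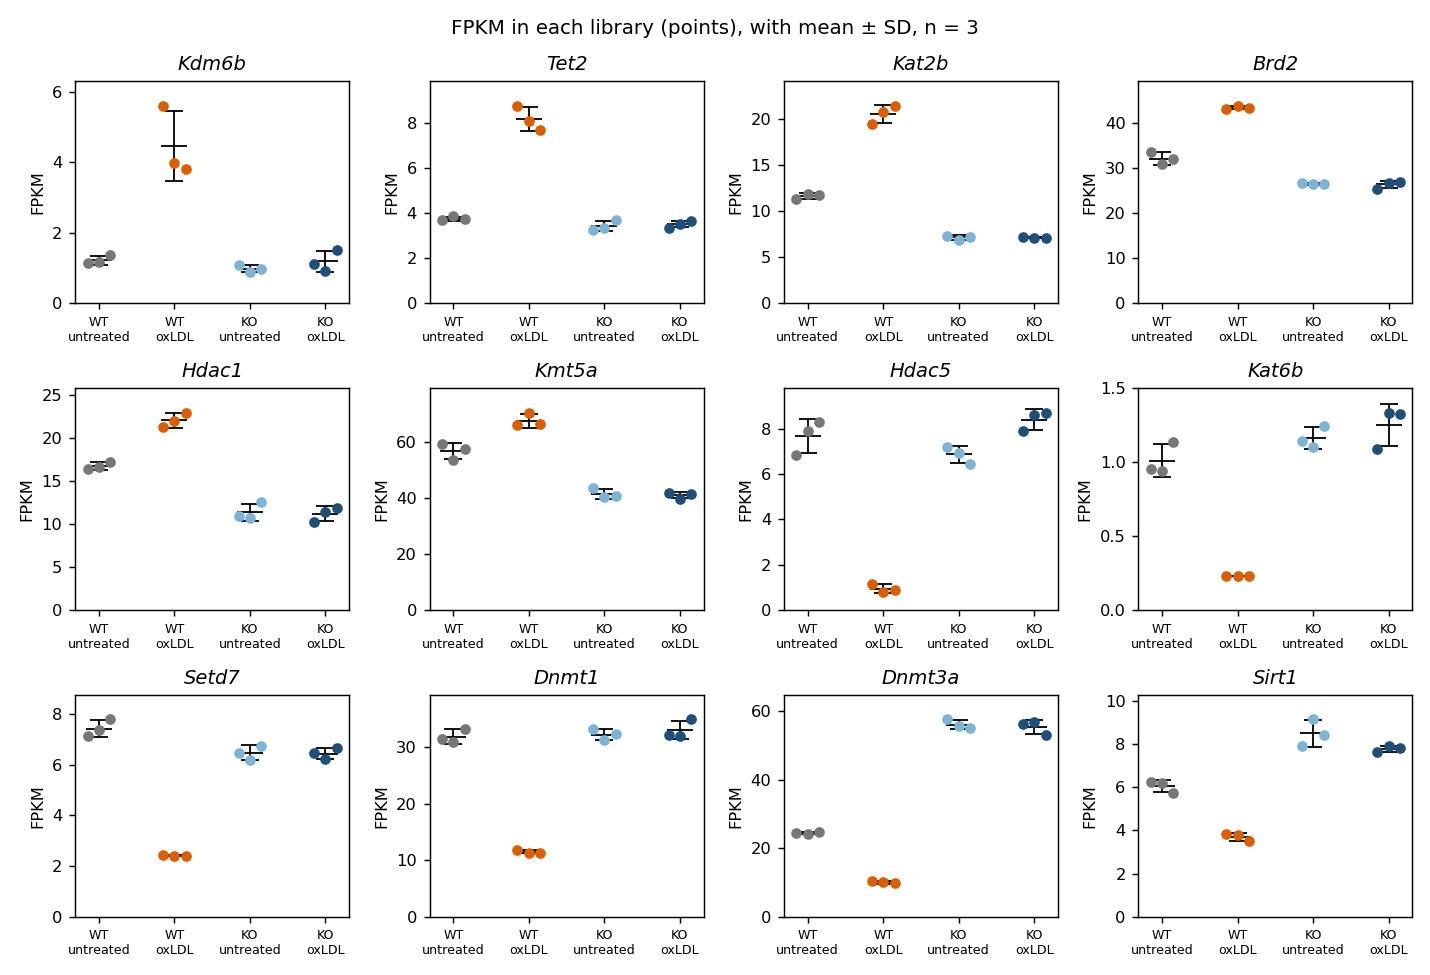
FPKM (y axis, from 0) of 12 members in each library, by group (x axis), with points for libraries and bars for mean ± SD (n = 3). For Kdm6b, Tet2, Kat2b, Brd2, Hdac1 and Kmt5a WT with oxLDL is the highest group. For Hdac5, Kat6b, Setd7, Dnmt1, Dnmt3a and Sirt1 it is the lowest, and for Dnmt3a and Sirt1 the KO groups are the highest.

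Among the erasers, the 11 classical deacetylases were mostly lower or not called with oxLDL in WT: 2 were called higher and 5 lower with TMM (2 and 8 with library totals). Under all 5 settings Hdac1 and Hdac9 rose and Hdac4, Hdac5, Hdac6, Hdac8 and Hdac10 fell. Hdac5, a class IIa deacetylase that shuttles between nucleus and cytoplasm (chromosome 11, 102194432 to 102230166, minus strand), had 6.86, 7.89 and 8.32 FPKM in untreated WT and 1.16, 0.801 and 0.865 with oxLDL. Its KO values were 7.20, 6.93 and 6.46 FPKM untreated and 7.88, 8.61 and 8.72 with oxLDL. WT with oxLDL lay far below the other 9 libraries. The change of -2.60 ± 0.11 in WT was the lowest among the 88 tested members on the TMM scale (adjusted p = 8.42e-11, edgeR's test). In KO the oxLDL difference was 0.29 ± 0.10 and was not called (adjusted p = 0.519), and the interaction was 2.89 ± 0.15.

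The class IIa paralogs did not move alike. Hdac4 fell by 0.85 log2 in WT (SE 0.10), from 1.38 to 1.54 FPKM down to 0.568 to 0.691. Hdac9 had 1.18, 1.13 and 1.24 FPKM in untreated WT, 1.84, 1.66 and 1.61 with oxLDL, 1.78, 1.76 and 1.80 in untreated KO and 1.67, 1.60 and 1.54 in KO with oxLDL. Untreated WT lay below the other 9 libraries, with a rise of 0.93 ± 0.07 for oxLDL in WT and of 0.69 ± 0.07 for untreated KO against WT (adjusted p = 4.09e-08 and 2.08e-06, edgeR's test). Hdac7 (chromosome 15, 97792664 to 97844502, minus strand) had 3.28, 2.93 and 3.67 FPKM in untreated WT and 1.73, 1.37 and 1.74 in untreated KO. In WT with oxLDL it had 2.64, 2.09 and 2.41 FPKM and in KO with oxLDL 1.58, 1.96 and 2.06. Its untreated genotype difference was -0.93 ± 0.13 (adjusted p = 5.18e-05, same test), and its oxLDL change in WT of -0.06 ± 0.13 was not called.

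Of the class I deacetylases, Hdac1 had 16.4, 16.6 and 17.2 FPKM in untreated WT, 21.2, 21.9 and 22.9 with oxLDL, 10.9, 10.7 and 12.5 in untreated KO and 10.2, 11.4 and 11.9 in KO with oxLDL. It rose in WT by 0.80 ± 0.07 and its genotype difference was -0.45 ± 0.07 untreated and -1.28 ± 0.07 with oxLDL (adjusted p = 1.49e-07, 0.000115 and 5.35e-10, edgeR's test). Its pseudogene row Hdac1-ps can share reads with it. Hdac3, the catalytic subunit of the NCoR and SMRT corepressor complexes, was called in no comparison on the TMM scale: it had 6.82, 6.70 and 7.43 FPKM in untreated WT, 5.33, 5.86 and 5.46 with oxLDL, 7.11, 6.55 and 7.16 in untreated KO and 6.76, 6.85 and 7.37 in KO with oxLDL. Its oxLDL change in WT was 0.07 ± 0.07 with TMM (adjusted p = 0.406, same test), -0.33 with library totals and -0.29 with limma. Hdac6, the cytoplasmic tubulin deacetylase, fell in WT from 2.33 to 2.45 FPKM down to 0.717 to 1.03, and Hdac8 from 1.21 to 1.46 down to 0.313 to 0.463.

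The 7 sirtuins are deacylases that use NAD. With oxLDL in WT 2 were called higher and 5 lower with TMM (0 and 6 with library totals), and Sirt1, Sirt3, Sirt4, Sirt5 and Sirt7 fell under all 5 settings. The mitochondrial Sirt3 had 0.859, 1.07 and 0.917 FPKM in untreated WT and 0.194, 0.252 and 0.274 with oxLDL. The values in KO were 0.888, 0.954 and 1.02 FPKM untreated and 0.907, 0.933 and 0.845 with oxLDL, so that WT with oxLDL stood alone. It fell by 1.54 log2 (SE 0.16, adjusted p = 1.06e-06, edgeR's test). Sirt4, also mitochondrial, had 2.04, 1.84 and 2.53 FPKM in untreated WT, 1.20, 0.918 and 0.902 with oxLDL, 1.46, 1.94 and 1.75 in untreated KO and 2.35, 2.39 and 2.56 in KO with oxLDL. It fell by 0.67 log2 in WT (SE 0.17, adjusted p = 0.00405), differed by 0.50 ± 0.17 in KO without being called (adjusted p = 0.457), and its interaction was 1.17 ± 0.24 (same test).

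Sirt1, the nuclear NAD-dependent deacetylase (chromosome 10, 63319005 to 63381704, minus strand), had 6.23, 6.18 and 5.72 FPKM in untreated WT, 3.82, 3.79 and 3.49 with oxLDL, 7.93, 9.15 and 8.42 in untreated KO and 7.62, 7.92 and 7.81 in KO with oxLDL. The groups of the 2 genotypes did not overlap. Sirt1 was 0.60 ± 0.07 higher in untreated KO (adjusted p = 6.95e-06, edgeR's test), and fell by 0.30 log2 with oxLDL in WT (SE 0.07). Sirt6, a chromatin-bound deacylase (chromosome 10, 81621785 to 81627797, minus strand), went the other way between genotypes: it had 3.55, 4.67 and 4.20 FPKM in untreated WT, 4.61, 4.06 and 3.97 with oxLDL, 2.59, 2.74 and 2.15 in untreated KO and 2.35, 2.49 and 3.15 in KO with oxLDL. Its untreated genotype difference was -0.62 ± 0.14 (adjusted p = 0.0029, same test). Sirt2 was the most abundant sirtuin, with 33.4 to 37.8 FPKM in untreated WT and 40.6 to 41.8 in untreated KO, a difference of 0.31 ± 0.05.

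Of the 17 tested lysine demethylases, 9 were called higher and 4 lower with oxLDL in WT (3 and 10 with library totals). Under all 5 settings Kdm6b, Kdm4a and Kdm7a rose and Kdm1b, Kdm2b and Kdm4c fell. Kdm6b, also called JMJD3, removes methyl groups from H3K27 (chromosome 11, 69398508 to 69413675, minus strand). It had 1.14, 1.16 and 1.37 FPKM in untreated WT and 5.60, 3.98 and 3.80 with oxLDL. The KO libraries had 1.07, 0.896 and 0.975 FPKM untreated and 1.12, 0.911 and 1.51 with oxLDL. The WT libraries with oxLDL stood above all others, with replicate 1 the highest. The rise in WT was 2.27 ± 0.18 (adjusted p = 7.59e-08, edgeR's test), the oxLDL difference in KO was 0.27 ± 0.18 (adjusted p = 0.88), and the interaction was -2.004 ± 0.25. The X-linked paralog Kdm6a was called in none of the comparisons with TMM, at 4.26, 4.75 and 4.32 FPKM in untreated WT, 3.06, 3.10 and 3.19 with oxLDL, 4.37, 4.04 and 4.93 in untreated KO and 3.90, 4.64 and 4.38 in KO with oxLDL.

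Kdm4a, a demethylase of H3K9 and H3K36 (chromosome 4, 118136957 to 118180043, minus strand), had 13.5, 13.3 and 14.96 FPKM in untreated WT, 24.7, 22.5 and 21.4 with oxLDL, 10.7, 10.8 and 10.7 in untreated KO and 10.1, 11.2 and 12.4 in KO with oxLDL. It rose by 1.12 ± 0.07 in WT (adjusted p = 5.64e-09, edgeR's test). Its untreated genotype difference of -0.27 ± 0.07 was not called without WT replicate 3 (adjusted p = 0.0519, same test). Kdm7a had 13.3, 13.1 and 13.7 FPKM in untreated WT, 15.5, 17.3 and 17.7 with oxLDL, 8.68, 8.37 and 9.59 in untreated KO and 7.87, 8.64 and 8.43 in KO with oxLDL. Its genotype difference was -0.48 ± 0.06 untreated and -1.32 ± 0.06 with oxLDL. Kdm5b, an H3K4 demethylase, was lower in untreated KO as well, at 1.95, 1.58 and 1.96 FPKM against 2.95, 2.82 and 2.83 in WT (-0.54 ± 0.09, adjusted p = 0.000261, same test).

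Among the demethylases that fell with oxLDL in WT, Kdm2b, which recruits a Polycomb complex to CpG islands, had 1.06, 1.09 and 1.54 FPKM untreated and 0.656, 0.522 and 0.471 with oxLDL. KO macrophages had 1.23, 1.35 and 1.28 FPKM untreated and 1.27, 1.32 and 1.44 with oxLDL. The change in WT was -0.75 ± 0.15 and the interaction 0.82 ± 0.20 (adjusted p = 0.000558 and 0.00477, edgeR's test). Kdm1b, the LSD2 amine oxidase, fell by 0.67 log2 in WT (SE 0.07), from 5.56 to 6.16 FPKM down to 2.70 to 2.82. Its paralog Kdm1a was called higher at 0.49 ± 0.09 with TMM, a call that was not kept under all 5 settings.

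Of the 3 TET dioxygenases, Tet1 and Tet2 rose with oxLDL in WT. Tet2 (chromosome 3, 133463679 to 133545139, minus strand) had 3.68, 3.86 and 3.75 FPKM in untreated WT and 8.79, 8.10 and 7.72 with oxLDL. In KO it had 3.25, 3.35 and 3.71 FPKM untreated and 3.36, 3.54 and 3.65 with oxLDL. WT with oxLDL stood alone above the other 9 libraries. Tet2 rose by 1.53 ± 0.06 in WT (adjusted p = 2.44e-11, edgeR's test), differed by 0.03 ± 0.06 in KO, and had an interaction of -1.50 ± 0.08. Its untreated genotype difference was -0.02 ± 0.06. Tet1 rose from a low level, with 140 counts over the 3 untreated WT libraries and 807 with oxLDL, against 53 and 42 in the KO groups. Tet3, with 6.26 to 6.84 FPKM in WT with oxLDL against 8.25 to 9.35 untreated, was not called for oxLDL in WT on the TMM scale. With library totals and with limma 1 TET gene, Tet3, was called lower there.

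The readers were the 7 bromodomain proteins. On the TMM scale 6 were called higher with oxLDL in WT and none lower, while library totals gave 3 higher and 2 lower and limma 2 and 2. Brd2, a BET protein that binds acetylated histones (chromosome 17, 34112023 to 34122619, minus strand), had 33.5, 30.7 and 31.8 FPKM in untreated WT, 43.1, 43.7 and 43.3 with oxLDL, 26.7, 26.4 and 26.3 in untreated KO and 25.4, 26.6 and 26.9 in KO with oxLDL. It rose by 0.85 ± 0.04 in WT, and its genotype difference was -0.17 ± 0.04 untreated and -1.03 ± 0.04 with oxLDL (adjusted p = 4e-10, 0.0066 and 2.57e-11, edgeR's test). Brd7, a subunit of a SWI/SNF remodelling complex, rose by 0.57 ± 0.04, from 16.5 to 16.9 FPKM up to 18.3 to 19.1. Brd3, another BET gene, was called in none of the comparisons with TMM.

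**Figure D3:**
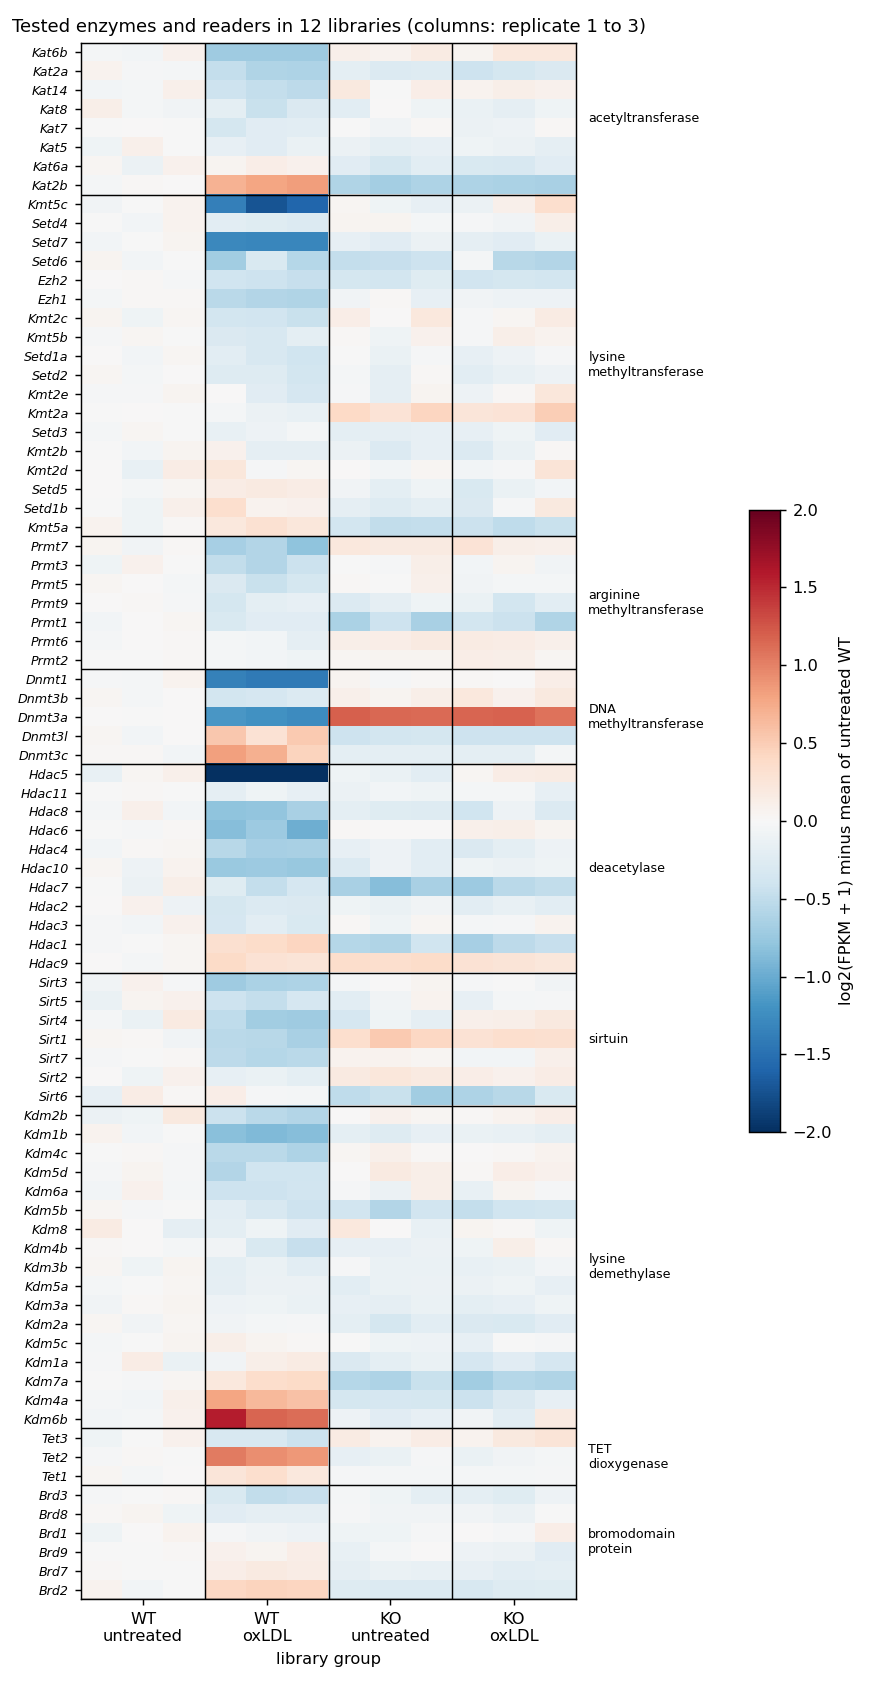
Tested enzymes and readers (rows, 82 of the 83, with 1 gene not reported here, by class and by their change with oxLDL in WT) in the 12 libraries (columns), coloured by log2(FPKM + 1) minus the mean of untreated WT, with colours saturated at 2 in either direction. FPKM values are scaled by library totals, and the 3 columns of WT with oxLDL stand apart, with Kdm6b toward the upper and Hdac5 toward the lower colour limit.

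The 5 tested rows that match by name alone were mostly at low counts. Dnmt3aos is described above. Kdm6bos (chromosome 11, 69401513 to 69402700), which lies inside Kdm6b on the opposite strand, had 56 counts over WT with oxLDL and 0 over KO with oxLDL, at least 26.0-fold lower, and its reads cannot be told apart from those of Kdm6b without the strand setting. Hdac1-ps was called higher with oxLDL in WT at 0.70 ± 0.21 on the TMM scale only. Brd3os and Brd8dc were called in none of the comparisons (edgeR's test).

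Ratios of related genes within a library do not depend on the scaling. The FPKM ratio of Kdm6b to Kdm6a was 0.276 ± 0.037 in untreated WT, 1.43 ± 0.34 in WT with oxLDL, 0.222 ± 0.024 in untreated KO and 0.276 ± 0.075 in KO with oxLDL (SD, n = 3). For Tet3 to Tet2 it was 2.33 ± 0.14, 0.811 ± 0.032, 2.82 ± 0.21 and 2.85 ± 0.08 in the same order, and for Hdac2 to Hdac1 0.433 ± 0.040, 0.257 ± 0.008, 0.593 ± 0.040 and 0.558 ± 0.041. In each of these ratios the WT libraries with oxLDL overlapped no other library. The ratio of Dnmt3a to Dnmt1 was 0.770 ± 0.024 and 0.874 ± 0.013 in the WT groups and 1.74 ± 0.04 and 1.68 ± 0.14 in the KO groups. Ezh2 to Ezh1 was 0.180 ± 0.007 and 0.168 ± 0.004 in WT and 0.131 ± 0.022 and 0.125 ± 0.004 in KO. In both of these ratios, too, WT with oxLDL overlapped no other library, and the WT and KO libraries did not overlap; for Ezh2 to Ezh1 the gap between the WT groups was narrow, from 0.171 to 0.172.

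**Figure D4:**
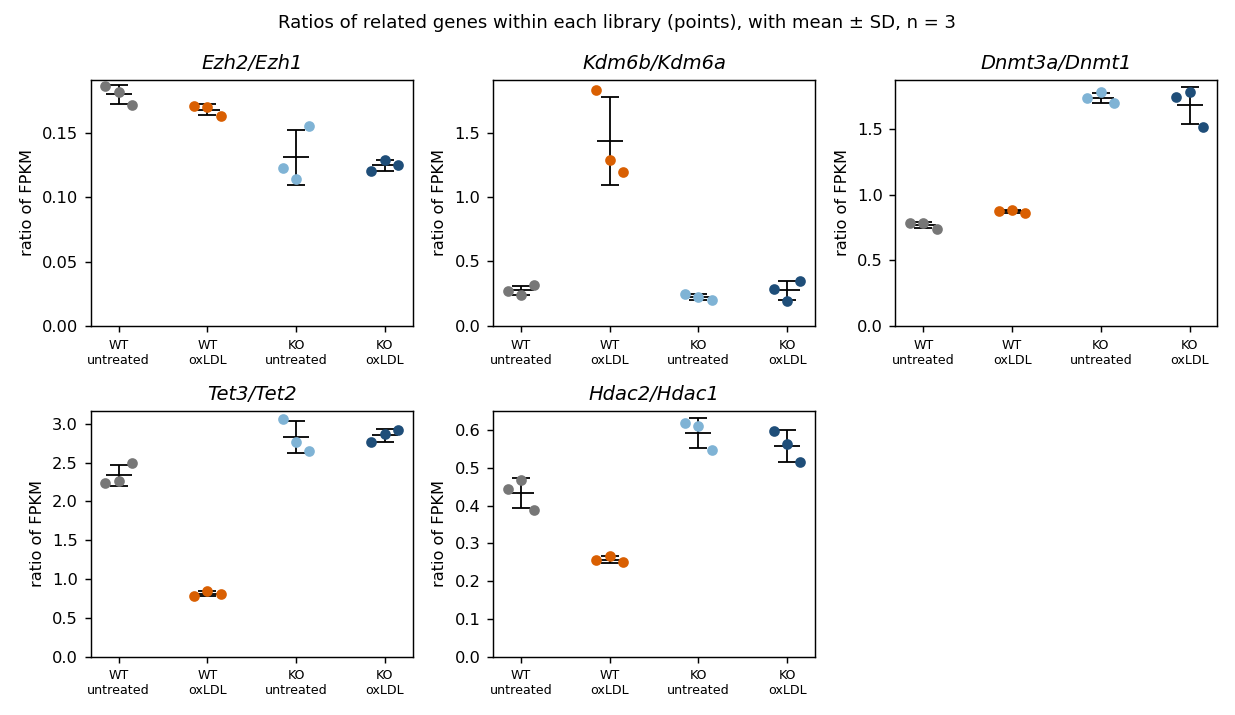
FPKM ratios (y axis, from 0) of 5 pairs of related genes within each library, by group (x axis), with points for libraries and bars for mean ± SD (n = 3). Kdm6b/Kdm6a is high and Tet3/Tet2 and Hdac2/Hdac1 are low in WT with oxLDL, and Dnmt3a/Dnmt1 is high in both KO groups.

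Other genes of the same machinery were counted from lists outside the name rule. With oxLDL in WT 23.9% of all genes tested were called higher and 27.2% lower with TMM. Of 28 further writers, 13 were called higher and 8 lower with oxLDL in WT with TMM, and 5 and 15 with library totals. Hat1, which acetylates new histone H4, rose by 1.27 ± 0.08, and Smyd3, a lysine methyltransferase, fell by 2.38 log2 (SE 0.16). Of 13 further erasers, 6 were called higher and 2 lower with TMM, and 3 and 6 with library totals. Riox2, a histidine hydroxylase of the JmjC family, rose by 2.13 ± 0.07, with an interaction of -2.28 ± 0.09. Of 51 tested further readers, 20 were called higher and 18 lower with TMM, and 9 and 34 with library totals. The Polycomb chromobox genes Cbx8 and Cbx7 fell by 3.04 log2 (SE 0.27) and 2.15 log2 (SE 0.24), with interactions of 3.21 ± 0.36 and 2.02 ± 0.32. Sp110, Sp140 and Sp100 rose by 1.80 ± 0.06, 1.61 ± 0.06 and 1.57 ± 0.04. Their interactions were -1.77 ± 0.09, -1.68 ± 0.09 and -1.63 ± 0.06.

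Among 23 Polycomb subunits 11 were called higher and 4 lower with oxLDL in WT with TMM, and 9 and 9 with library totals. Pcgf5 and Rnf2, subunits of Polycomb repressive complex 1, rose by 1.34 ± 0.08 and 0.83 ± 0.08, and Jarid2, an accessory subunit of complex 2, by 0.86 ± 0.05. In untreated KO 7 were called lower and 1 higher, with 14 and 1 for library totals. The shares over all genes there were 16.2% lower and 14.8% higher with TMM. Of 14 subunits of H3K4 methyltransferase complexes 4 were called higher and 3 lower with oxLDL in WT (1 and 9 with library totals), and of 23 subunits of deacetylase complexes 10 and 6 (2 and 15). Uhrf1, which brings Dnmt1 to newly replicated DNA, fell by 0.86 log2 with oxLDL in WT (SE 0.16) and was lower in untreated KO at -1.88 ± 0.16 (adjusted p = 0.000351 and 3.90e-07, edgeR's test). No gene of these lists was called with oxLDL in KO, where between 0 and 3 genes of each list had an unadjusted p under 0.05. Over all genes 0.0116% were called higher there and 0% lower.

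**Figure D5:**
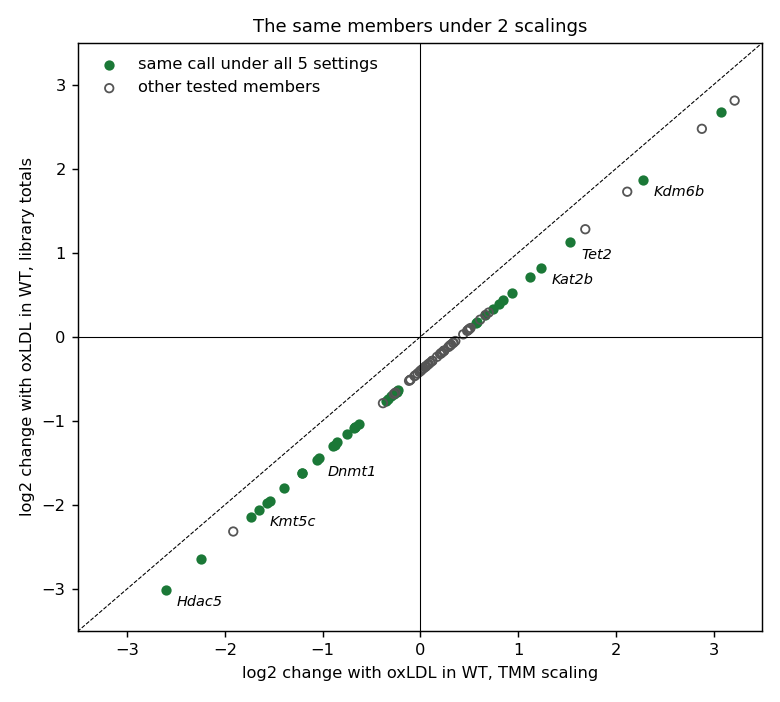
Log2 changes with oxLDL in WT of the 88 tested members with TMM scaling (x axis) and with library totals (y axis); filled points were called in the same direction under all 5 settings, and the dashed line marks equal values. The library-total values differ from the TMM values by -0.41 to -0.39, and 26 points have opposite signs on the axes.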

How the data were processed

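Poly(A) RNA of 12 libraries (4 groups, n = 3) was sequenced in read pairs. The authors deposited 1 table with raw counts per gene and FPKM values per library, per the file headers. The submitters' processing notes name HISAT2 2.0, Bowtie 0.12.2 and the build mm8. Which counter and annotation were used, and whether strand was used, is not given in the sources used here. The deposited coordinates overlapped GRCm38 positions for 99.9% of 21986 matched genes, so positions are given as GRCm38.

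Counts were fitted as deposited in 1 model over the 4 groups with edgeR 4.0.16 (TMM, filterByExpr, quasi-likelihood test, R 4.3.3), leaving 17291 of 27294 genes, with a common dispersion of 0.0279 and Benjamini-Hochberg adjustment over all of them. SE is the absolute log2 change over the square root of F. The fit was tested on simulated counts in which only a small set of genes changed, up or down at random, in WT with oxLDL. Far more genes were called in these data, so that test does not bear on the choice of scaling. Alternatives were library totals, DESeq2 size factors, DESeq2 1.42.0, limma 3.58.1 on log2(FPKM + 1) of the deposited FPKM, no filter, a replicate block and leaving out each library. Figures were drawn with matplotlib 3.10.9. Replicate libraries differed by a chi-square per degree of freedom of 10.7 to 29.6, so none was counted as a repeat. Library totals ran from 53588814 to 76809931 counts. A search for promoter motifs was not run, and no sequences were used here. A few single genes are not reported here.

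Members and lists were chosen with earlier results of these data known. Per-library values are given for the called members with the highest and lowest change in each class for oxLDL in WT, the 6 highest and 6 lowest between untreated genotypes, the 3 with the smallest p for oxLDL in KO and 14 with a known macrophage role. Those of the first kinds had a mean of at least 1 FPKM in a group. Hdac1, Kdm4a, Sirt3, Sirt2, Dnmt3b, Dnmt3c, Tet1 and Tet3, and other members given with values, were added after their values were seen.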

Additional observations from a re-analysis of the deposited data

Results flagged for a closer look

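The oxLDL change differed between genotypes, as the change in KO minus that in WT in edgeR's quasi-likelihood test on the TMM scale, for 21 of the 30 members described by the naming rule. Over all 88 tested members it was called for 51, and over all genes for 22.1% as positive and 19.6% as negative. Most of the 30 were chosen by their oxLDL or genotype changes, which enter this difference, so the count among them is a description that the choice largely fixes. In 11 of them the difference was positive, that is the KO change lay above the WT change. These log2 differences were 2.89 for Hdac5, 2.25 for Dnmt3aos, 1.87 for Kmt5c, 1.83 for Kat6b, 1.20 for Setd7, 1.17 for Sirt4, 1.10 for Dnmt1, 0.86 for Dnmt3a, 0.82 for Kdm2b, 0.64 for Prmt7 and 0.21 for Ezh1. In the other 10 the difference was negative, at -7.49 for Dnmt3l, -2.004 for Kdm6b, -1.50 for Tet2, -1.23 for Kat2b, -1.08 for Hdac9, -0.86 for Brd2, -0.84 for Kdm7a, -0.68 for Kmt5a, -0.33 for Kmt2a and -0.28 for Prmt2. The Dnmt3l value is fitted against 0 counts in KO with oxLDL and is no bound. The signs for Kmt2a and Prmt2 turned with library totals.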

How the results depend on the processing

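The counts of called members rested mainly on the scaling between libraries. Under library totals, and under limma on log2(FPKM + 1), which rests on them too, oxLDL in WT gave 14 and 15 members higher and 52 and 52 lower. KO against WT untreated gave 6 and 6 higher and 25 and 26 lower. KO against WT with oxLDL gave 44 higher with library totals, and 24 and 22 lower. The interaction gave 48 and 47 positive and 14 and 14 negative. DESeq2 called 1 member lower with oxLDL in KO. DESeq2 size factors in edgeR and dropping the count filter kept each count within 1.5 times. Members higher in untreated KO ranged from 7 to 15 with 1 library left out, and numbered 7 without the shallower WT libraries, an alternative chosen after seeing the data.

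Library totals and limma turned the sign of these log2 values. For oxLDL in WT, Hdac3 lay at -0.33 and -0.29, Kmt2a at -0.11 and -0.10, Prmt1 at -0.29 and -0.25, and Prmt2 at -0.0699 and -0.0614. For the interaction they gave 0.35 and 0.30 for Hdac3, 0.0856 and 0.0727 for Kmt2a, 0.40 and 0.35 for Prmt1, and 0.13 and 0.11 for Prmt2. Prmt2 in KO against WT with oxLDL lay at 0.18 and 0.15. These settings move all genes together; which scaling is right was not tested.

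Replicate numbers did not pair the samples: same-numbered samples had correlations of deviations from -0.045 to 0.031 over 18 pairs. With a replicate block, members higher and lower numbered 35 and 27 for oxLDL in WT, 0 and 0 for oxLDL in KO, 13 and 15 for KO against WT untreated, 29 and 36 with oxLDL, and 20 and 29 for the interaction.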
